A study of Danio rerio with 10 samples.

Results

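The cytosolic heat shock chaperones and their partners were examined in zebrafish kidney marrow, the tissue where adult fish make their blood cells. The members were 10 genes (hsp90aa1.1, hsp90aa1.2, hsp90ab1, hspa8, hspa4a, dnajb1b, hspb1, hsf1, hspd1 and hspe1), and every probe set whose single gene symbol in the platform annotation was one of them was taken. All 10 genes were on the array, with 13 of its 15502 probe sets. Marrow RNA came from 5 zebrafish samples with overexpressed human CREB and 5 control samples, with 1 array each. The labels do not say whether these came from separate animals, so p-values measure only the spread between these samples, which may be technical. CREB is a transcription factor that responds to cyclic AMP. The promoter that drives the transgene and the age of the fish are not given in the sources used here. All values are log2 signals of the authors' processed table, and differences are CREB minus control with Benjamini-Hochberg adjusted p-values from limma over all 15502 probe sets. "Rose" and "fell" mean an adjusted p below 0.05.

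Heat shock proteins are chaperones that hold, fold or release other proteins. HSP70 proteins bind unfolded stretches with the help of J proteins, which bring substrates, and of nucleotide exchange factors, which free them. HSP90 dimers take over partly folded clients such as kinases and steroid receptors, helped by co-chaperones. Small heat shock proteins keep damaged proteins from clumping. The transcription factor HSF1 induces the genes of all these classes under stress. Despite the name given to the group, hspd1 and hspe1 encode the chaperonin and co-chaperonin of mitochondria, not of the cytosol. In the RefSeq gene table of assembly GRCz12tu, hsp90aa1.1 and hsp90aa1.2 are direct neighbours, as are hspd1 and hspe1.

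Several properties of the arrays bear on the chaperone values. Array medians lay between 5.72 and 5.93, and the median log2 difference over all probe sets was 0.18. The 88 control probe sets left after setting aside those for spiked hybridisation RNA, actin and gapdh are called background control probe sets here. All were higher in CREB samples, by a median of 0.28. Whether some of them detect other spiked RNA was not checked. CREB arrays 3 and 5 had gapdh signals of 6.50 and 6.74 at the 5' end of the transcript, against 9.54 to 10.70 on the other 8 arrays, while their 3' signals (11.40 and 11.20) lay within the range of the others. Marrow markers were present on all arrays: the mean log2 signal was 9.13 to 10.93 for 9 neutrophil genes and 9.15 to 11.26 for 6 erythroid genes. Of the neutrophil genes 5 fell and none rose (median log2 difference -0.78), of 12 proliferation genes 3 fell and 1 rose (median -0.57), and no erythroid gene passed. Genes of skeletal muscle had a mean of 7.22 to 9.64 on CREB arrays and 4.78 to 5.21 on control arrays, and 18 of 19 measured rose. Kidney tubule genes had a mean of 9.44 to 10.56 against 8.07 to 8.86, and 6 of 7 rose. Control arrays 3, 4 and 5 carried gonad and egg transcripts (means of 8.98, 7.68 and 8.95, against 5.04 to 7.07 elsewhere). The 7.07 was CREB array 4, where the egg genes zar1 and zp3b were at 9.94 and 9.25, near their 9.64 and 9.16 on control array 4. The egg genes zp3a.1 and zp3a.2 were also at 8.47 and 7.55 on control array 1 and at 8.12 and 8.53 on CREB array 3. On CREB arrays 1 and 2 and control array 2 they were at 5.08 to 5.94. Control arrays 4 and 5 carried pancreas transcripts (10.28 and 11.37, against 5.79 to 7.06). In such bulk tissue, fewer cells of a type and less RNA per cell cannot be told apart.

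The 3 cytosolic HSP90 genes and hspb1 were higher in CREB samples. Of the 13 member probe sets 4 rose, none fell and 9 did not pass. These 4 belonged to hsp90aa1.1, hsp90aa1.2, hsp90ab1 and hspb1. Over all probe sets 23.5% rose and 6.79% fell, so the members' share of 30.8% was near the background of the table as deposited. Of all calls 77.6% were higher, against 60.4%, 63.3% and 51.9% after quantile, median and cyclic loess scaling. After these scalings 11.1%, 12.9% and 9.50% of all probe sets rose. The same 4 member probe sets rose after each of them, and that of hspa8 also after quantile scaling. Without scaling, 3 of the 9 member probe sets with a mean of log2 6 or more rose, where 15.9% of all such probe sets did. Every CREB array lay above every control array for 3 member probe sets, all of HSP90 genes, against 19.6% of all probe sets. The median log2 difference of the 13 was 0.51. At an unadjusted p below 0.05 there were 7 of the 13, all of them higher in CREB samples, where 33.7% of all probe sets were. No member rose without control arrays 3, 4 and 5, when 2 control arrays were left, and 1 rose without control arrays 4 and 5. Over all probe sets 0.922% and 3.90% rose under these settings.

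**Figure D1:**
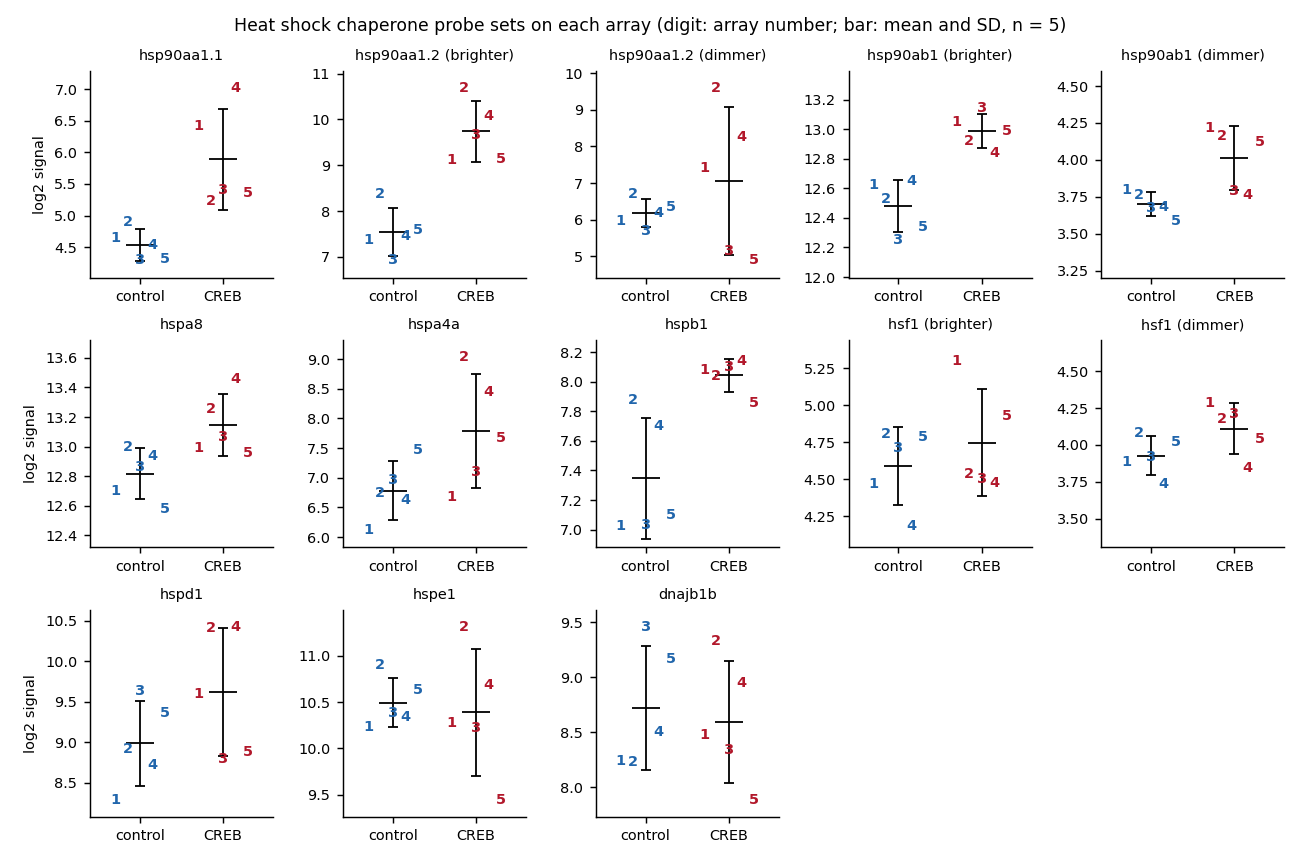
Log2 signal of each of the 13 member probe sets, with control arrays in blue and CREB arrays in red; digits are array numbers, bars the mean and SD (n = 5), and each panel has its own scale. The groups separate for hsp90aa1.1, the brighter hsp90aa1.2 and the brighter hsp90ab1 probe set, and overlap in the other 10 panels.

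The stress-inducible cytosolic HSP90 gene hsp90aa1.2 had the largest difference of the members. Its brighter probe set gave 9.12, 10.69, 9.65, 10.08 and 9.14 on CREB arrays 1 to 5 and 7.38, 8.38, 6.92, 7.45 and 7.58 on control arrays 1 to 5. The lowest CREB array stood above the highest control array, control array 2. The signal rose 4.57-fold, or 2.19 ± 0.35 in log2 units (± SE; adjusted p = 0.00422 by limma). It passed under 20 of 21 alternatives and not without control arrays 3, 4 and 5, where the difference was 1.86 (adjusted p = 0.0808 by limma).

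The dimmer hsp90aa1.2 probe set differed in the same direction but did not pass. It gave 7.42, 9.60, 5.14, 8.25 and 4.89 on CREB arrays 1 to 5 and 5.97, 6.71, 5.71, 6.20 and 6.35 on control arrays 1 to 5. CREB arrays 1, 2 and 4 were above all controls, and CREB arrays 3 and 5 were below all of them. The log2 difference, 0.88 with an SE of 0.82, missed the threshold (adjusted p = 0.418 by limma). Without CREB arrays 3 and 5 it was 2.24 and passed (adjusted p = 0.0245 by limma), where the brighter probe set gave 2.42. The brighter minus the dimmer probe set was 4.51 and 4.25 on CREB arrays 3 and 5, and the remaining 8 arrays had 1.09 to 1.82. The gapdh 3' minus 5' signal, a measure of how much of a transcript's length was labelled, was 4.89 and 4.46 on the same arrays, with 1.06 to 1.53 elsewhere. The part of transcript integrity in this disagreement was not tested. A further probe set annotated to both hsp90aa1.2 and hsp90aa1.1, and so no member, followed the dimmer probe set, with 6.95, 8.77, 5.28, 7.67 and 5.24 on CREB arrays and 5.57 to 6.63 on control arrays. Because these neighbouring genes are close copies, probes for one may also bind transcripts of the other.

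**Figure D2:**
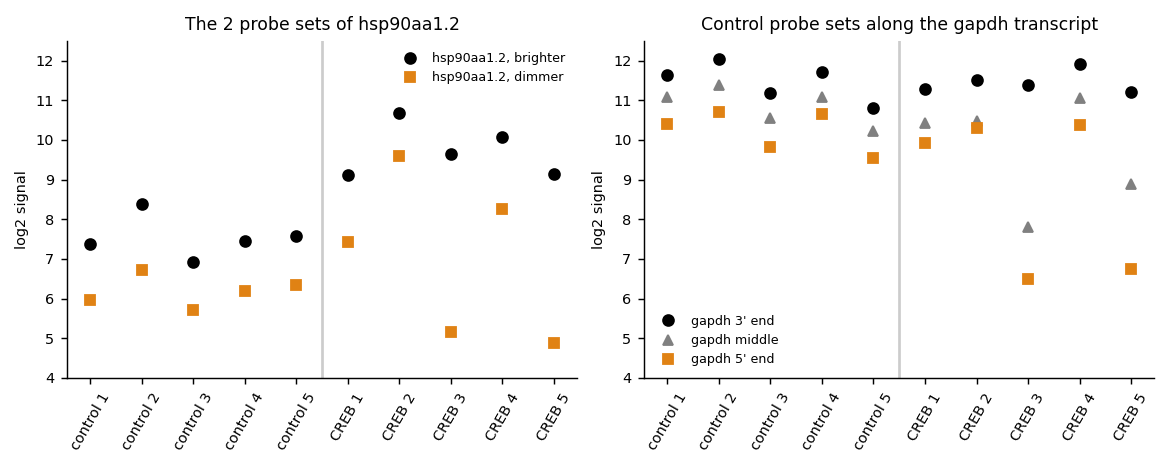
Log2 signal on each array for the brighter and dimmer hsp90aa1.2 probe sets (left) and for control probe sets at the 3' end, middle and 5' end of the gapdh transcript (right). The dimmer hsp90aa1.2 probe set and the gapdh 5' probe set are both lowest on CREB arrays 3 and 5, where the brighter hsp90aa1.2 and gapdh 3' signals are not.

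The paralogue hsp90aa1.1, which in zebrafish is expressed in striated muscle and needed for myosin folding there, rose from a low level. Its probe set gave 6.42, 5.23, 5.40, 7.02 and 5.35 on CREB arrays 1 to 5 and 4.64, 4.90, 4.29, 4.53 and 4.31 on control arrays 1 to 5. The groups did not overlap, and CREB arrays 4 and 1 were highest. The log2 difference was 1.35 ± 0.34 (SE; adjusted p = 0.0175 by limma), and 71 of the 88 background control probe sets were dimmer than hsp90aa1.1 in control samples. A signal this near background limits the size of the difference, so no fold is given. The call was lost without control arrays 4 and 5 (adjusted p = 0.0909 by limma) and without control arrays 3, 4 and 5 (adjusted p = 0.191 by limma).

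Muscle genes rose in the same samples. Their mean was 9.64, 7.79, 7.22, 8.78 and 9.45 on CREB arrays 1 to 5. CREB arrays 1 and 4, highest for hsp90aa1.1, were among the CREB arrays with most muscle signal, but CREB array 5, with the next muscle level after array 1, had an hsp90aa1.1 signal of 5.35. CREB array 5, like CREB array 3, had a low gapdh 5' signal (6.74), whose part in this value was not tested. The brighter hsp90aa1.2 probe set had its lowest CREB values on CREB arrays 1 and 5, those with the most muscle signal. Every CREB array had more muscle signal than any control array, at 7.22 to 9.64 against 4.78 to 5.21. Muscle level thus went with group, and its part in the hsp90aa1.1 and hsp90aa1.2 differences was not tested.

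**Figure D3:**
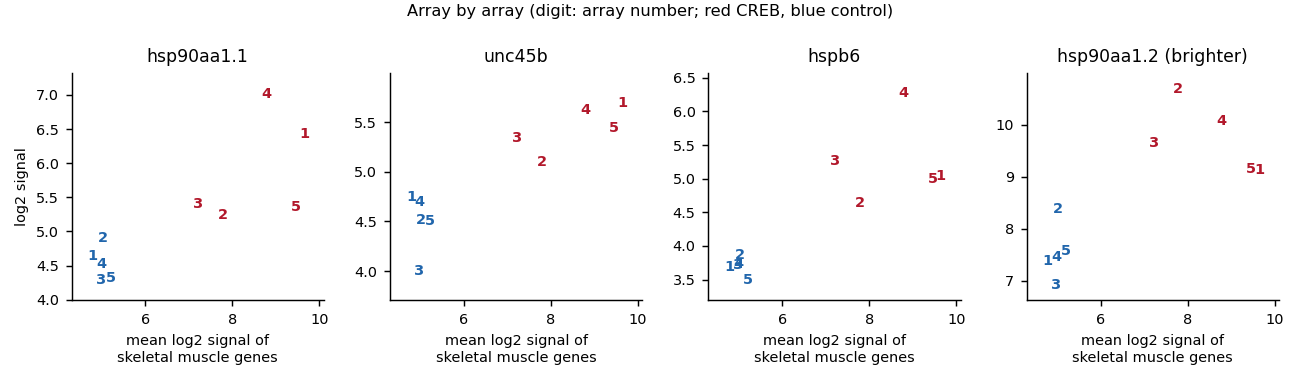
Log2 signal of hsp90aa1.1, unc45b, hspb6 and the brighter hsp90aa1.2 probe set (vertical) against the mean log2 signal of 19 skeletal muscle genes (horizontal) on each array; digits are array numbers, red CREB and blue control. All CREB arrays lie to the right of all control arrays, and the highest hsp90aa1.2 value is on CREB array 2.

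The constitutive cytosolic HSP90 gene hsp90ab1 was bright on every array and rose by a smaller step. Its brighter probe set gave 13.05, 12.92, 13.14, 12.84 and 12.99 on CREB arrays 1 to 5 and 12.63, 12.52, 12.25, 12.65 and 12.34 on control arrays 1 to 5. The lowest CREB array, array 4, stood above the highest control array, also array 4. The rise was 1.42-fold, or 0.51 ± 0.11 in log2 units (± SE; adjusted p = 0.0121 by limma), which is 0.33 above the median of all probe sets. CREB arrays 3 and 5 were not low for this probe set, and without them the difference was 0.46 and did not pass (adjusted p = 0.0566 by limma). It also did not pass without control arrays 4 and 5 or 3, 4 and 5 (adjusted p = 0.0630 and 0.125 by limma). The dimmer hsp90ab1 probe set lay at background, between 3.77 and 4.22 on CREB arrays and 3.59 and 3.80 on control arrays. Its difference of 0.31 did not pass (adjusted p = 0.0730 by limma) and was near the 0.28 of the background control probe sets. It passed without CREB array 4 (adjusted p = 0.0390 by limma), with array weights (0.0423) and with the eBayes trend and robust settings (0.0434).

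Whether the HSP90 genes changed unequally was tested on the difference of their log2 signals within each array, by permuting the group labels exactly (two-sided), where the smallest possible p is 0.00794. Of 5 such pairs of members, hsp90aa1.2 over hsp90ab1 differed, with a shift of 1.68 and no overlap between the groups (exact permutation p = 0.00794, adjusted 0.0397 over the 5 pairs). Its adjusted p was 0.0595 without CREB array 2, 0.0794 without CREB array 4, and 0.198 when both probe sets of each gene were averaged, where the shift was 1.12 (exact permutation). The shift of hsp90aa1.1 over hsp90ab1 was 0.84 (exact permutation p = 0.0317, adjusted 0.0794), and it passed without CREB array 3 (adjusted p = 0.0397). That of hsp90aa1.1 over hsp90aa1.2 was -0.84 (exact permutation p = 0.127, adjusted 0.159).

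**Figure D4:**
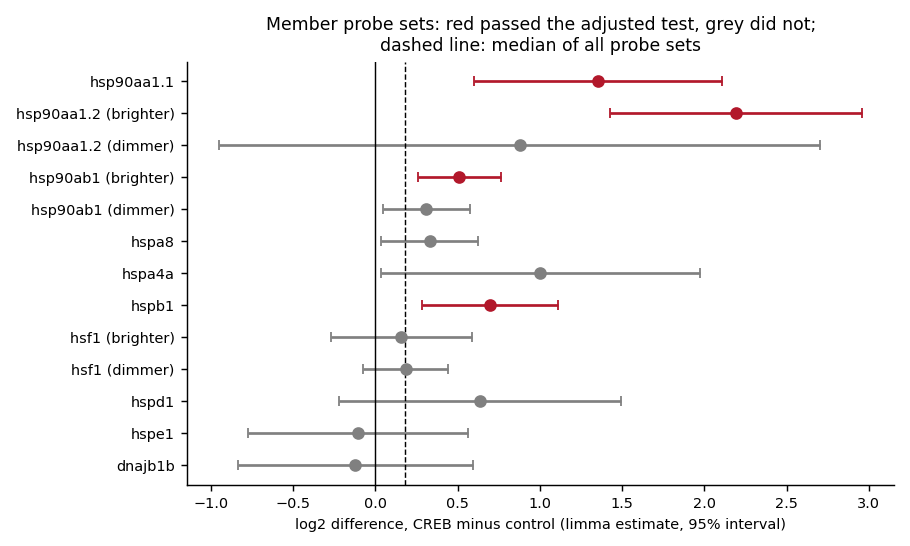
Log2 difference, CREB minus control, of each member probe set with its 95% interval from limma; red passed the adjusted test, the solid line marks no difference and the dashed line the median of all probe sets (0.18). The interval of the brighter hsp90aa1.2 probe set reaches from 1.42 to 2.96, and those of hsf1, hspd1, hspe1, dnajb1b and the dimmer hsp90aa1.2 probe set cross zero.

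The HSP70 members did not pass. The constitutive HSP70 gene hspa8, whose product is the main housekeeping HSP70 of the cytosol, gave 12.99, 13.26, 13.07, 13.46 and 12.96 on CREB arrays 1 to 5 and 12.70, 13.00, 12.86, 12.94 and 12.58 on control arrays 1 to 5. Only CREB arrays 1 and 5 lay below the highest control value. The difference was 0.33 with a 95% interval of 0.04 to 0.62 (adjusted p = 0.0806 by limma), and it passed under quantile scaling at 0.46 (adjusted p = 0.0341 by limma). The gene hspa4a, of the HSP110 class whose products act as nucleotide exchange factors for HSP70, gave 6.67, 9.03, 7.10, 8.45 and 7.67 on CREB arrays and 6.12, 6.73, 6.96, 6.62 and 7.47 on control arrays. CREB arrays 2 and 4 stood well above the controls and CREB arrays 1 and 3 among them. Its difference of 1.0 (95% interval 0.03 to 1.97; adjusted p = 0.102 by limma) passed with array weights, at 1.16 (adjusted p = 0.0414 by limma). The J protein gene dnajb1b, which encodes an HSP40 partner of HSP70, gave 8.48, 9.32, 8.34, 8.94 and 7.89 on CREB arrays and 8.24, 8.23, 9.46, 8.50 and 9.17 on control arrays. Its groups overlapped, and the interval of the difference was -0.84 to 0.59 (adjusted p = 0.784 by limma). The 2 highest control values were on arrays 3 and 5, and without control arrays 3, 4 and 5 the difference turned to 0.36 (adjusted p = 0.504 by limma). The pair hspa8 and hspa4a did not shift against each other beyond the spread between arrays (shift -0.67; exact permutation p = 0.175, adjusted 0.175).

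The small heat shock protein gene hspb1, the zebrafish counterpart of HSP27, rose and was nearly constant among CREB samples. It gave 8.08, 8.04, 8.10, 8.14 and 7.86 on CREB arrays 1 to 5 and 7.02, 7.87, 7.03, 7.70 and 7.10 on control arrays 1 to 5. Control arrays 2 and 4 were close to the CREB level, and control arrays 1, 3 and 5 were lower. The rise was 1.62-fold, or 0.70 ± 0.18 in log2 units (± SE; adjusted p = 0.0214 by limma). With array weights it was 0.55 and did not pass (adjusted p = 0.0597 by limma). It also did not pass without CREB arrays 3 and 5, at 0.74 (adjusted p = 0.0652 by limma), without control arrays 4 and 5 (adjusted p = 0.0704 by limma) or without control arrays 3, 4 and 5 (adjusted p = 0.15 by limma).

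The heat shock transcription factor gene hsf1 was measured near background by both of its probe sets. The brighter one gave 5.30, 4.54, 4.5, 4.48 and 4.93 on CREB arrays and 4.18 to 4.81 on control arrays, with 71 of the 88 background control probe sets dimmer in control samples. The dimmer one gave 3.84 to 4.28 on CREB arrays and 3.73 to 4.08 on control arrays. Neither passed (log2 differences of 0.16 and 0.18; adjusted p = 0.540 and 0.234 by limma), and both differences turned negative under quantile and cyclic loess scaling, to between -0.13 and -0.08. The 95% intervals were -0.27 to 0.59 and -0.07 to 0.44. HSF1 activity is set largely by the state of the protein, which an RNA array does not measure.

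The mitochondrial chaperonin genes did not pass. The gene hspd1, which encodes the HSP60 chaperonin, gave 9.59, 10.41, 8.79, 10.42 and 8.88 on CREB arrays 1 to 5 and 8.29, 8.92, 9.64, 8.71 and 9.36 on control arrays 1 to 5. CREB arrays 1, 3 and 5 lay among the controls, while CREB arrays 2 and 4 were above all of them. The difference was 0.64 (95% interval -0.22 to 1.49; adjusted p = 0.217 by limma), and 1.16 without CREB arrays 3 and 5 (adjusted p = 0.0555 by limma). Its neighbour and partner hspe1, which encodes the HSP10 lid, gave 10.28, 11.31, 10.22, 10.69 and 9.45 on CREB arrays and 10.24, 10.90, 10.38, 10.33 and 10.63 on control arrays. The groups overlapped, and the interval of the difference was -0.78 to 0.56 (adjusted p = 0.798 by limma). Within arrays, hspd1 over hspe1 shifted by 0.74 (exact permutation p = 0.0476, adjusted 0.0794), and the shift passed without CREB array 3 (adjusted p = 0.0397). CREB arrays 3 and 5 were the lowest of the CREB arrays for 4 member probe sets, those of hspd1, hspe1 and dnajb1b and the dimmer one of hsp90aa1.2, against 19.7% of all probe sets.

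Other genes of the chaperone machinery, in 8 lists, showed a mixed picture. Of 71 genes measured, 14 rose, 4 fell and 53 did not pass, and the median log2 difference was 0.15 against 0.18 for all probe sets. The share that rose, 19.7%, was not above the background of 23.5%. The 14 that rose include 8 of the 18 genes with a mean below log2 6, where 30.4% of all probe sets rose. With those dim probe sets removed before the fit 5 genes rose, and without control arrays 3, 4 and 5 there was 1, where 12.2% and 0.922% of all probe sets rose.

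HSP90 co-chaperones rose at a share near the background of 23.5% of all probe sets. By the brightest probe set of each gene 4 of 16 were higher and none lower. For cdc37l1, a relative of the kinase co-chaperone gene cdc37, that probe set gave -0.24 and did not pass (adjusted p = 0.324 by limma), while a second one fell by 1.37 (adjusted p = 0.00685 by limma), with 5.01 to 5.55 on CREB arrays and 6.03 to 7.34 on control arrays. The immunophilin gene fkbp5, which tunes steroid receptors bound to HSP90, gave 10.87, 10.44, 11.00, 9.71 and 11.04 on CREB arrays and 5.85 to 6.61 on control arrays (adjusted p = 0.000123 by limma), and it passed under all 21 alternatives. Its relative fkbp4, which has the same place on HSP90, gave 9.16, 9.58, 9.32, 9.30 and 8.88 on CREB arrays and 8.78, 8.39, 8.43, 8.19 and 8.18 on control arrays. The groups did not overlap, and fkbp4 rose by 0.85 ± 0.16 in log2 units (± SE; adjusted p = 0.00698 by limma). It did not pass without control arrays 4 and 5 (adjusted p = 0.059 by limma) or 3, 4 and 5 (0.116). The myosin chaperone gene unc45b, a muscle partner of hsp90aa1.1, rose by 0.95 ± 0.17 from a low level of 4.49, and ahsa1a, which encodes an activator of the HSP90 ATPase, by 0.63 ± 0.17 from 4.06 (SE; adjusted p = 0.00603 and 0.0215 by limma). In control samples 70 and 57 of the 88 background control probe sets were dimmer than these. Both genes had a mean below log2 6, where 30.4% of all probe sets rose. The ahsa1a difference of 0.63 lay within the range of the background control probe sets (0.04 to 0.64). Under quantile and cyclic loess scaling ahsa1a did not pass (adjusted p = 0.129 and 0.143 by limma). Neither unc45b nor ahsa1a passed without control arrays 3, 4 and 5 (adjusted p = 0.0728 and 0.172 by limma). The ahsa1a call was also lost without control arrays 4 and 5 (adjusted p = 0.088 by limma).

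Small heat shock protein genes were the one list in which every measured gene rose, 4 of 4, with a median log2 difference of 1.03. The list named 12 genes, so most were not measured. Over all probe sets 23.5% rose. The genes hspb6, cryaa and cryaba had a mean below log2 6, where 30.4% of all probe sets rose. The gene hspb8, whose product acts with BAG3 in clearing damaged proteins, gave 9.09, 10.05, 9.34, 8.35 and 9.32 on CREB arrays and 7.75, 8.26, 6.99, 7.56 and 7.21 on control arrays. The groups did not overlap, and hspb8 rose 3.19-fold (1.68 ± 0.32 on the log2 scale, SE; adjusted p = 0.00746 by limma). The call for hspb8 was lost without control arrays 4 and 5 (adjusted p = 0.0576 by limma) and without control arrays 3, 4 and 5 (0.122). The muscle-rich gene hspb6 rose by 1.54 ± 0.26 (SE; adjusted p = 0.00512 by limma) from 3.70, at the median of the background control probe sets (3.68). Its call was lost without control arrays 3, 4 and 5 (adjusted p = 0.0877 by limma). The crystallin genes cryaa and cryaba rose by 0.52 and 0.49 at low signals. Both differences lay within the range of the background control probe sets (0.04 to 0.64). Neither passed under quantile, median or cyclic loess scaling (adjusted p from 0.0533 to 0.205 by limma), and cryaba was also lost when any of 6 single arrays was left out, namely CREB arrays 1, 3 and 5 and control arrays 3, 4 and 5 (adjusted p up to 0.0610 by limma).

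In the HSP70 family 2 of 5 genes rose, where 23.5% of all probe sets did. The inducible gene hsp70.3 gave 8.40, 10.60, 7.31, 9.10 and 6.59 on CREB arrays 1 to 5 and 6.15, 5.88, 5.81, 5.84 and 5.68 on control arrays 1 to 5. No CREB value was as low as a control value, but the CREB arrays spread widely, with arrays 3 and 5 lowest. The difference was 2.53 ± 0.63 (SE; adjusted p = 0.0171 by limma). The call was lost without control arrays 4 and 5 (adjusted p = 0.0858 by limma) or 3, 4 and 5 (0.162). This probe set may bind related HSP70 transcripts. A probe set annotated jointly to hsp70.1, hsp70l and hsp70.3 gave 8.13, 10.70, 5.52, 9.42 and 5.72 on CREB arrays and 5.34 to 5.75 on control arrays, and it did not pass (adjusted p = 0.0774 by limma). On CREB arrays 3 and 5 it stood at the control level. The HSP110 gene hspa4l rose by 1.23 ± 0.27 from 4.23 (SE; adjusted p = 0.0121 by limma). In control samples 67 of the 88 background control probe sets were dimmer. The call for hspa4l was lost with a replicate block (adjusted p = 0.0512 by limma), without control arrays 4 and 5 (0.0597) and without control arrays 3, 4 and 5 (0.127).

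By the brightest probe set of each gene, the genes that fell were J protein and prefoldin genes. Of 10 J protein genes none rose and 2 fell, where 23.5% of all probe sets rose and 6.79% fell. The histone chaperone gene dnajc9 gave 7.10, 6.57, 6.06, 7.37 and 6.50 on CREB arrays and 7.63 to 8.12 on control arrays, and it fell by 1.11 on the log2 scale (adjusted p = 0.00968 by limma). It did not pass without control arrays 4 and 5 (adjusted p = 0.0602 by limma) or 3, 4 and 5 (0.105). The membrane J protein gene dnajb12a fell by 0.62 (adjusted p = 0.0432 by limma), but it passed under only 7 of 21 alternatives and was lost when any of several single arrays was left out. Among 13 genes of the CCT chaperonin, which folds actin and tubulin, and of prefoldin, which delivers them, 1 rose and 2 fell. Over all probe sets 23.5% rose and 6.79% fell. The CCT subunit gene tcp1 rose by 0.51 and the prefoldin genes pfdn2 and vbp1 fell by 0.83 and 0.81 (adjusted p = 0.0246, 0.0139 and 0.0234 by limma). The call for tcp1 held under 14 of 21 alternatives and was lost under cyclic loess scaling (adjusted p = 0.110 by limma), without control arrays 3, 4 and 5 (0.0897) or 4 and 5 (0.0788), and without control array 4 (0.0501). That for pfdn2 was lost with a replicate block (adjusted p = 0.0513 by limma) and without control arrays 4 and 5 (0.0763) or 3, 4 and 5 (0.121). Without CREB array 5 or control array 5 vbp1 had an adjusted p of 0.0535 or 0.0504 (limma). The vbp1 call was also lost with a replicate block (adjusted p = 0.0577 by limma) and without control arrays 4 and 5 (0.109) or 3, 4 and 5 (0.196). A second vbp1 probe set, at a difference of 0.15, did not pass. A second, dim probe set of the CCT subunit gene cct2 rose by 0.42 where its brightest, at 0.34, did not pass (adjusted p = 0.0408 and 0.351 by limma). The 0.42 lay within the range of the background control probe sets (0.04 to 0.64).

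Of 7 HSP70 cofactor genes 1 rose and none fell, where 23.5% of all probe sets rose and 6.79% fell. This gene, bag2, a nucleotide exchange factor gene, rose by 0.71 from 3.85 (adjusted p = 0.00741 by limma), and did not pass under cyclic loess scaling (0.0551). Its call was also lost without control arrays 4 and 5 (adjusted p = 0.0527 by limma) or 3, 4 and 5 (0.106). In control samples 52 of the 88 background control probe sets were dimmer than bag2. For hspbp1, another nucleotide exchange factor gene, the brightest probe set gave 0.0985 and did not pass (adjusted p = 0.786 by limma), while a second one, dimmer in control samples, rose by 0.80 (adjusted p = 0.0319 by limma). Of 7 genes of heat shock factors and other heat shock proteins 2 rose and none fell, beside the same 23.5% and 6.79%. The collagen chaperone gene serpinh1b rose 2.14-fold and hspa1b by 0.40 at a low signal (adjusted p = 0.0124 and 0.0227 by limma). Like bag2, hspa1b had a mean below log2 6, where 30.4% of all probe sets rose. For serpinh1b the groups overlapped, with a lowest CREB value of 7.20 and a highest control value of 7.31. Its call was lost without control arrays 4 and 5 (adjusted p = 0.0767 by limma). Without control arrays 3, 4 and 5 the difference was 0.61 (adjusted p = 0.157 by limma). The hspa1b difference lay within the range of the background control probe sets (0.04 to 0.64). Its call was lost under quantile, median and cyclic loess scaling (adjusted p = 0.279, 0.0590 and 0.387 by limma) and without control array 5 (0.0526). The second heat shock factor gene hsf2, at a difference of 0.44, did not pass (adjusted p = 0.126 by limma), and passed without control array 3 (adjusted p = 0.0311 by limma) and with array weights (0.0285). None of 9 further mitochondrial chaperone and protease genes passed, where 23.5% of all probe sets rose and 6.79% fell. The mitochondrial HSP70 gene hspa9 differed by 0.44 and the protease gene lonp1 by 0.68 (adjusted p = 0.155 and 0.115 by limma), and lonp1 passed with array weights (0.0341). A second hspa9 probe set went the other way, at -0.17, and did not pass (adjusted p = 0.789 by limma). By unadjusted p, the smallest of this list was that of clpxa, at a difference of -0.80 (adjusted p = 0.0641 by limma), and it passed without CREB array 2 or 4, under cyclic loess scaling and with array weights (adjusted p from 0.0305 to 0.0425 by limma). The remaining clpxa probe sets gave -0.50, -0.05 and 0.16, and none passed (adjusted p = 0.0896, 0.792 and 0.554 by limma). The other named genes that did not pass, cct5, hsf5, stub1, bag6, st13, hspa4b, hspa12a, dnajb1a, dnajb6a and dnaja3b, had differences between -0.41 and 0.57, and dnajb1a and cct5 passed without CREB array 3 (adjusted p = 0.0259 and 0.0133 by limma).

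**Figure D5:**
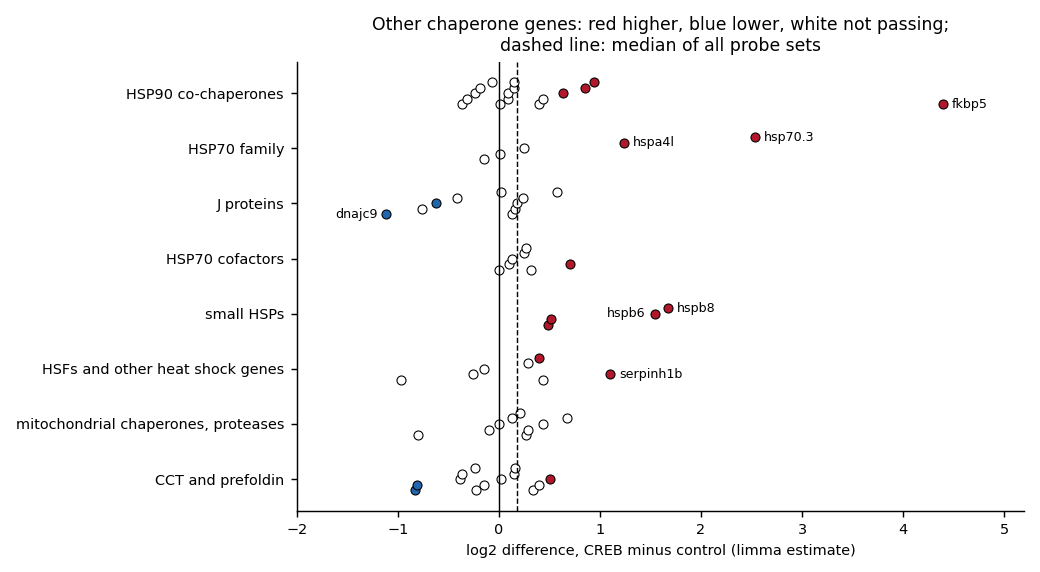
Log2 difference, CREB minus control, of 71 genes in 8 chaperone lists, 1 point per gene; red rose, blue fell, white did not pass, and the dashed line is the median of all probe sets (0.18). Each point is the brightest probe set of a gene. The 4 small heat shock protein genes lie to the right of the dashed line, fkbp5 stands farthest out, and the genes that fell are J protein and prefoldin genes.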

How the data were processed

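The authors' deposited table held 1 log2 signal per probe set for 10 Affymetrix zebrafish arrays, hybridised with biotin-labelled RNA prepared with a 3' IVT kit per the labels' protocols. The log2 unit was read from the deposited values. How the authors summarised and normalized these values is stated by no source used here, so the scaling between arrays is unknown. The 115 control probe sets were set aside and 15502 tested. Symbols came from the platform annotation, brought up to date through Entrez IDs and RefSeq (10711 of 10795 with a single symbol). Groups followed the sample titles, with 5 arrays each, and the number of arrays limits the precision.

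CREB was compared with control by limma 3.58.1 in R 4.3.3 (lmFit, eBayes, two-sided, Benjamini-Hochberg, no filter or covariate). The fit was tested on simulated data. Of 108 listed chaperone genes 71 had a probe set, and the brightest stood for a gene. Pairs of members were compared by exact permutation (Python 3.11.15). Every member probe set is named, with up to 4 genes of smallest p per list plus fkbp5, stip1 and unc45b (stip1 had no probe set with a single symbol). The pooled hsp70 and hsp90 probe sets, and zar1, zp3b, zp3a.1 and zp3a.2, were added after their values were seen. So were the second probe sets of cdc37l1, hspbp1, cct2, vbp1 and hspa9 and the remaining ones of clpxa. Further probe sets of other listed chaperone genes, among them sugt1 and grpel2, are not described, and none of them passed. The members and lists were chosen with earlier results of these data known. Replicate numbers were not used as pairs in the main fit, and whether they pair the arrays was not tested. Alternatives were a replicate block, filters, scalings, eBayes settings, array weights and leaving arrays out.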

Additional observations from a re-analysis of the deposited data

How the results depend on the processing

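Of the 13 member probe sets 4 rose, with 0 on leaving out control arrays 3, 4 and 5 and 1 on leaving out control arrays 4 and 5. With a replicate block 3 rose and hsp90ab1 did not (limma, adjusted p = 0.0549). Deviations of same-numbered arrays correlated at -0.02 to 0.27, and whether the numbers pair the arrays was not tested. Other chaperone genes that rose numbered 14, but 9 with a replicate block, 6 without the dimmest 40% of probe sets, 5 above a mean of log2 6, 8 under cyclic loess, and 1 and 3 on leaving out control arrays 3, 4 and 5 or 4 and 5. The share of all probe sets that rose was 23.5%, and 11.4%, 13.9%, 12.2%, 9.50%, 0.922% and 3.90% in the same order. Those that fell numbered 4, but 1 with the block, 0 without either set of control arrays, and between 2 and 5 with 1 array left out. The shift of hsp90aa1.2 over hsp90ab1 did not pass with averaged probe sets (1.12). It was 1.44 without control arrays 3, 4 and 5, 1.65 without 4 and 5 and 1.96 without CREB arrays 3 and 5, where a pair that alone reaches the smallest exact p has an adjusted p of 0.238, 0.0893 and 0.0893, so missing the threshold there says nothing. It lay between 1.43 and 1.88 with 1 array left out; with 1 array left out that of hsp90aa1.1 over hsp90ab1 lay between 0.52 and 1.0 and that of hspd1 over hspe1 between 0.62 and 0.94. Turned signs, none of them past the test, were hsf1 at -0.0881 and -0.0839 under quantile and -0.13 and -0.0893 under cyclic loess scaling, dnaja3b at -0.0536 under cyclic loess, dnajb1b at 0.0924 with array weights, 0.36 without control arrays 3, 4 and 5 and 0.20 without CREB arrays 3 and 5, and hspe1 at 0.26 without CREB arrays 3 and 5. With 1 array left out dnajb1b ranged from -0.30 to 0.0613 (positive without CREB array 5 or control array 3), hspe1 from -0.34 to 0.13 (positive without CREB array 5) and hspa12a from -0.30 to 0.00728 (positive without CREB array 2). The share of all calls that were higher was 77.6%, and 60.4%, 63.3% and 51.9% under quantile, median and cyclic loess scaling, which moved the median difference of all probe sets from 0.18 to 0.04, 0.11 and -0.01. The causes were not tested.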

Other observations

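The order of the CREB arrays was shared by many members, a pattern noticed after the values were seen. CREB arrays 2 and 4 were the highest CREB arrays for 7 of the 13 member probe sets, those of hspa8, hspa4a, hspd1, hspe1 and dnajb1b and both of hsp90aa1.2, against 13% of all probe sets. The same arrays were highest for hsp70.3, at 10.60 and 9.10. The brighter hsp90ab1 probe set did not share that order and was lowest on these arrays, at 12.92 and 12.84. Spiked hybridisation control RNA, 9 probe sets with a mean of 9.03 to 9.71 on control arrays, was at 7.20, 7.71 and 5.67 on CREB arrays 1, 2 and 4 and at 10.62 and 9.69 on CREB arrays 3 and 5. The part of this in the chaperone values was not tested.

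The genes most like 4 members were sought among 5808 single-symbol probe sets with a mean of log2 6 or more, by Pearson's r of deviations from the group means over 10 arrays, which share their labelling and hybridisation. They are a description only. For hsp90aa1.1 these were ugp2b, smx5 and tra2a (r from 0.926 to 0.952), and for hspa8 pnn, pdcd6ip and prpf8 (0.916 to 0.922). For hspd1 they were strn3, maea and npm1a (0.968 to 0.973), and for hsf1, near background, cwc25, rhot2 and ube2r2 (0.884 to 0.918). Outliers were sought among the 5 arrays of each group for members and named genes, 90 groups in all, and 0 met Dixon's 95% criterion.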
